A study of Homo sapiens with 10 samples.

Results

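The enzymes and regulators of sterol and fatty acid synthesis were followed in human fibroblasts during activation of p53. The group was defined by name, as 32 genes of the mevalonate arm, the sterol arm, fatty acid synthesis and desaturation, sterol transport and the control of the pathway. All 32 were among the 11258 transcripts measured by both RNA-Seq and Ribo-Seq. The rule used names and no values, but earlier results of these data were known when the group and its comparisons were chosen. The cells were BJ, a human fibroblast line immortalized by expression of hTERT, the catalytic subunit of telomerase, and all groups shared that background and culture in fetal calf serum. One group was an untreated control, and the others were kept on nutlin-3a for 2, 4, 6 or 19 h. Nutlin-3a inhibits MDM2 and thereby activates p53. RNA-Seq was done on poly(A) RNA and Ribo-Seq on ribosome-protected fragments, with 1 library of each assay per group and 10 libraries in all. The labels do not say whether the RNA-Seq and Ribo-Seq libraries of a time came from the same culture, and a single line limits the groups as a model of fibroblasts.

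Cells take up cholesterol in lipoproteins or make it from acetyl-CoA. The mevalonate arm builds the isoprenoid farnesyl diphosphate, and the sterol arm closes it into a ring system and trims this to cholesterol. Both arms, and fatty acid synthesis beside them, are controlled by the SREBP transcription factors, which are encoded by SREBF1 and SREBF2. Their precursors sit in the membrane of the endoplasmic reticulum. SCAP carries them to the Golgi for cleavage when sterols are low, and the INSIG proteins hold SCAP back when sterols are plentiful. INSIG1 and SREBF2 are themselves targets of the pathway. SREBPs act with the CCAAT-binding factor NF-Y and with Sp1, which binds GC boxes.

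No difference below has a replicate check, since each group held 1 library, and no p-value was computed. Levels are FPKM, fragments per kilobase of transcript and library size, which are shares of a library, so that a lower RNA output per cell or fewer cells cannot be seen in them. Ribosome density is the Ribo-Seq level. Translational efficiency (TE) is the Ribo-Seq level divided by that of RNA-Seq, as a log2 value. Changes are log2 ratios of a treated library to its assay's control, with levels under 1 FPKM set to 1. A gene was called when it was at least 1.5-fold above or below the control. Values after ± are standard errors of counting alone, from read numbers that the steps between FPKM values gave back. Compared were the genes that reached 5 FPKM somewhere in RNA-Seq and somewhere in Ribo-Seq, 7015 in all and 27 of the 32. ACAT2, INSIG2, STARD4, ACACA and ELOVL6 fell below this filter in Ribo-Seq.

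The RNA-Seq libraries had recovered totals of 23845558 to 27554287 reads and the Ribo-Seq libraries 7744900 to 14460726, with the fewest in the Ribo-Seq library of 19 h. All 9 fibroblast markers examined, among them COL1A1, VIM and THY1, were at 55.5 FPKM or more in every RNA-Seq library, with sums of 9352 to 12605. Of the epithelial, endothelial and adipocyte markers, those listed were at or below 0.197 FPKM, and no hepatocyte marker was listed. The leukocyte gene PTPRC was at or below 0.246 FPKM, while CD68, a lysosomal protein, was at 61.4 to 86.4 FPKM. CDKN1A and MDM2, both direct p53 targets, went from 68.6 and 14.9 FPKM in the control to 1316 and 259 FPKM at 19 h.

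Promoter sequences were read from RefSeq (GRCh38.p14) as the 250 bases before each listed start, and 28 of the 32 genes had an entry, with 38 starts in all. The CCAAT motif, read on both strands, lay in 24 of these windows (63.2%), against 32% of 35116 promoters and 33.4% of the 7708 promoters of compared genes. GGGCGG, the core of the GC box, lay in 33 (86.8%), against 42.6% and 66.7%. TCACNCCAC, taken here for the sterol regulatory element, lay in 1 (2.63%, against 0.883% and 0.973%), that of SREBF2. Only exact matches were counted, so an element with another spelling would be missed. ACAT2, FDFT1, SQLE and FASN had no entry. Starts of the same gene can overlap, and a match is only a run of letters. The windows of 3 of the genes that were low at 4 h and have a single listed start are shown with that of SREBF2, the one with TCACNCCAC. Capitals mark CCAAT, or ATTGG where it lies on the other strand, and in SREBF2 also the match to TCACNCCAC.
MVK, chr12:109573544-109573793, plus strand: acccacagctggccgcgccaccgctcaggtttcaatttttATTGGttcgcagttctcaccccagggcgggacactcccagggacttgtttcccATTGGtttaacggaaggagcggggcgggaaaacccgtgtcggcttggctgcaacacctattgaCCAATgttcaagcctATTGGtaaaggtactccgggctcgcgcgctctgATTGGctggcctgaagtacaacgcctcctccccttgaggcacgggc
SC4MOL, chr4:165327419-165327668, plus strand: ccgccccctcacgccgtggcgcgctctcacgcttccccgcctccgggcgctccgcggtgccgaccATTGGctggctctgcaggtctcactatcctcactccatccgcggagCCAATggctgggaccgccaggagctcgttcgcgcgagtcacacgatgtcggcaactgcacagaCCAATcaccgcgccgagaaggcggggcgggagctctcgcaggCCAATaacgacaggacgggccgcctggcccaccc
INSIG1, chr7:155297628-155297877, plus strand: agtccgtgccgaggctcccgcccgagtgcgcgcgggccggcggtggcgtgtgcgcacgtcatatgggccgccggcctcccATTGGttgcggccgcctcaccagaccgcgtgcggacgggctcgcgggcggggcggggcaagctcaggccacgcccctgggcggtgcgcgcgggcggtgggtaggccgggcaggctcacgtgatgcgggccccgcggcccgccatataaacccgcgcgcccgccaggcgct
SREBF2, chr22:41832855-41833104, plus strand: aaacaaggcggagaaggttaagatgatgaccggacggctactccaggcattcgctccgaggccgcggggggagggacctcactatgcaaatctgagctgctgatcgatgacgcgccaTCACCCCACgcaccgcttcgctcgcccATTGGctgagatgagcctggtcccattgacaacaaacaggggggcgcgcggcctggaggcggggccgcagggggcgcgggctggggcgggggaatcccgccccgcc
MVK held 5 CCAAT motifs, SC4MOL 4, INSIG1 1 and SREBF2 1. The motifs did not overlap each other. No window of SREBF1 or SCAP held CCAAT, while both SREBF1 and SCAP held 3 GC boxes.

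In untreated cells the pathway was well expressed. The 27 compared genes had a median of 24.3 FPKM in RNA-Seq, against 20.1 FPKM over all compared genes, and 18.5 against 15.6 FPKM in Ribo-Seq. Per length of transcript, the RNA levels were highest for ACLY (86.5 FPKM), which makes cytosolic acetyl-CoA, and for FADS2 (74.8 FPKM), a desaturase of polyunsaturated fatty acids. SCD, which makes oleate, stood at 68.4 FPKM and FDFT1, the squalene synthase, at 68.3 FPKM. The lowest was TM7SF2, a sterol reductase, at 1.32 FPKM, followed by ACAT2, the cytosolic thiolase at the entry of the mevalonate arm, at 1.58 FPKM. ACAT2 overlaps a neighbouring gene, and only uniquely mapped reads were kept, so that its level is uncertain. As a level in the control, log2 TE ranged from -1.24 for SREBF2 to 1.46 for PMVK, a kinase of the mevalonate arm, among the 27 compared genes. The median was -0.38, against -0.27 over all compared genes. ACACA, which makes malonyl-CoA and was below the filter, had the lowest log2 TE level of the 32, at -2.23. Both assays were divided by the same transcript length, so TE levels of different genes are not corrected for the share that is coding.

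At 2 h almost nothing had moved in RNA. None of the 27 genes was called higher (background 2.08% of compared genes) and none lower (0.214%). The median log2 change was 0.01, against -0.05 over all compared genes, and the single changes lay between -0.20 and 0.32. Ribosome density gave 2 genes called higher (background 6.96%), SREBF1 and FASN, and none lower (2.72%).

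At 4 h 7 of the 27 genes were called lower in RNA (background 3.58%), namely HMGCS1, MVK and IDI1 of the mevalonate arm, SC4MOL of the sterol arm, the regulators SREBF1 and INSIG1, and SCD. None was called higher (3.51%). Counted without the limit of 1.5-fold, 26 of the 27 lay below the control, against 66.4% of all compared genes, and the median log2 change was -0.35 against -0.07. The median change was -0.53 in the mevalonate arm, -0.36 in the sterol arm and -0.50 among the regulators, but -0.17 in the fatty acid arm. Ribosome density followed with 5 genes called lower (background 3.26%), which were HMGCS1, MVK, SC4MOL, HSD17B7 and INSIG1, and none higher (10.4%). Its median change was -0.29, while that of all compared genes was 0.10. Only 1 gene stayed called lower in RNA at a 2-fold limit, which was INSIG1, and 5 stayed when changes were taken relative to the median of all compared genes. The filter raised to a 20 FPKM mean in each assay left 11 of the 27. Of these 11, 1 gene was called lower in RNA and 0 in density, and the median density change was -0.081. The sequencing run of the 4 h libraries is not known, so a run effect at 4 h could not be checked.

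**Figure D1:**
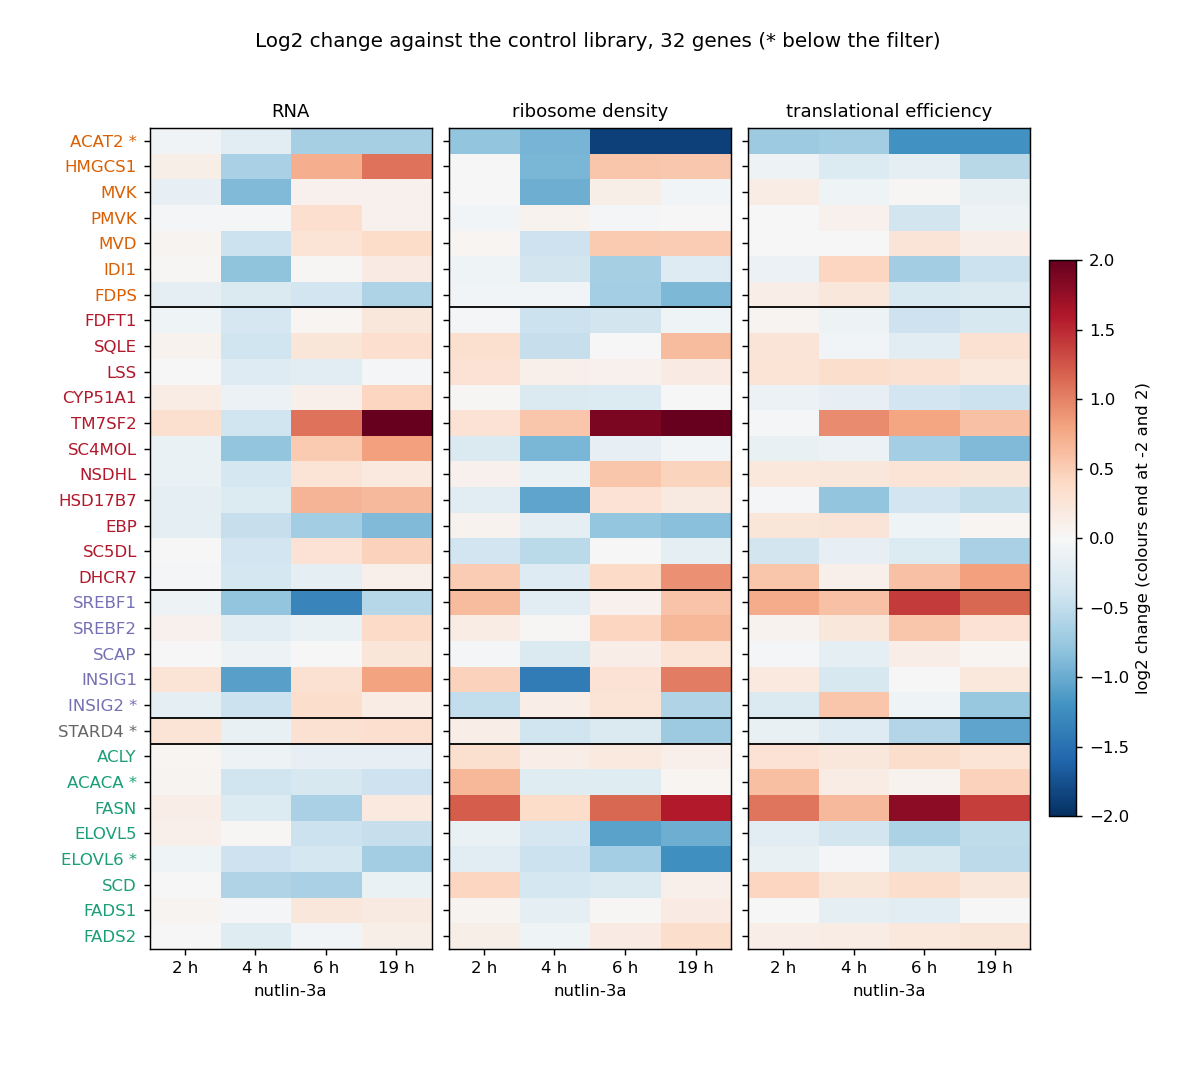
Log2 change against the control library for the 32 genes (rows, grouped by arm with black lines) at 2, 4, 6 and 19 h, for RNA (left), ribosome density (middle) and TE (right). Red is higher and blue lower, colours end at -2 and 2, asterisks mark the 5 genes below the filter, and the RNA column of 4 h is blue in 31 of the 32 rows.

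The order of the 5 libraries of an assay gave another view of these levels. Of the 5 RNA-Seq libraries, that of 4 h held the lowest level of 19 of the 27 genes, against 20.7% of all compared genes. The corresponding Ribo-Seq library held the lowest level of 17 of the 27, against 9.65%. The RNA-Seq library of 19 h held the highest level of 15 of the 27, against 19.3%. TM7SF2, which passed the filter only through its 19 h libraries, is among the 15 and the 19. HSD17B7, which passed in RNA only through 6 and 19 h, is among the 19 and the 17. Counts without these genes were not made.

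HMGCS1, which condenses acetyl-CoA units into HMG-CoA, was at 10.8, 11.7, 6.92, 18.0 and 23.0 FPKM in RNA of the control and of 2, 4, 6 and 19 h. The level of 4 h was the lowest and those of 6 and 19 h were the highest. The log2 change was -0.64 ± 0.076 at 4 h, and it was 0.73 ± 0.059 and 1.09 ± 0.057 at the 2 later times. In Ribo-Seq it was at 8.29, 8.32, 4.38, 12.2 and 12 FPKM, again lowest at 4 h, but the density change at 19 h was 0.54 ± 0.11 and was not called.

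MVK, the mevalonate kinase, was at 8.14, 7.30, 4.42, 8.68 and 8.65 FPKM in RNA in the same order. Apart from the dip at 4 h (-0.88 ± 0.12), its libraries stayed close to the control. Ribo-Seq of MVK repeated this, with 10.1, 10.0, 5.14, 10.9 and 9.66 FPKM. IDI1, the isomerase of the isoprenoid building blocks, was at 21.9, 22.2, 12.6, 22.4 and 24.5 FPKM in RNA and was likewise low at 4 h alone (-0.80 ± 0.068). Its Ribo-Seq levels were 14, 13.1, 10.8, 8.85 and 11.7 FPKM. There the lowest library was that of 6 h, with a density change of -0.66 ± 0.13 while RNA was level with the control.

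SC4MOL (listed as MSMO1), an oxidase that strips methyl groups from the sterol ring, was at 24.3, 22.1, 14.1, 34.9 and 43.1 FPKM in RNA. It was below the control at 4 h (-0.79 ± 0.065) and above it at 19 h (0.82 ± 0.049). In Ribo-Seq it stood at 18.1, 14.8, 9.63, 16.1 and 17.4 FPKM, also lowest at 4 h, but no treated library lay above the control.

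INSIG1, the sterol-dependent anchor of SCAP, moved most at 4 h among the 27. Its RNA was at 17.1, 20.6, 8.06, 21.0 and 29.8 FPKM and its Ribo-Seq level at 10.3, 14.2, 3.91, 12.6 and 20.8 FPKM. In both assays the 4 h library was the lowest and the 19 h library the highest. The log2 change of RNA was -1.08 ± 0.072 at 4 h and 0.81 ± 0.051 at 19 h, and that of density was -1.40 ± 0.13 and 1.02 ± 0.10. INSIG2, a related anchor that was below the filter, was at 5.67, 4.94, 4.20, 7.22 and 6.29 FPKM in RNA. None of its RNA changes reached 1.5-fold. Its Ribo-Seq levels, 2.20, 1.56, 2.40, 2.65 and 1.45 FPKM, rested on 29 to 90 reads.

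**Figure D2:**
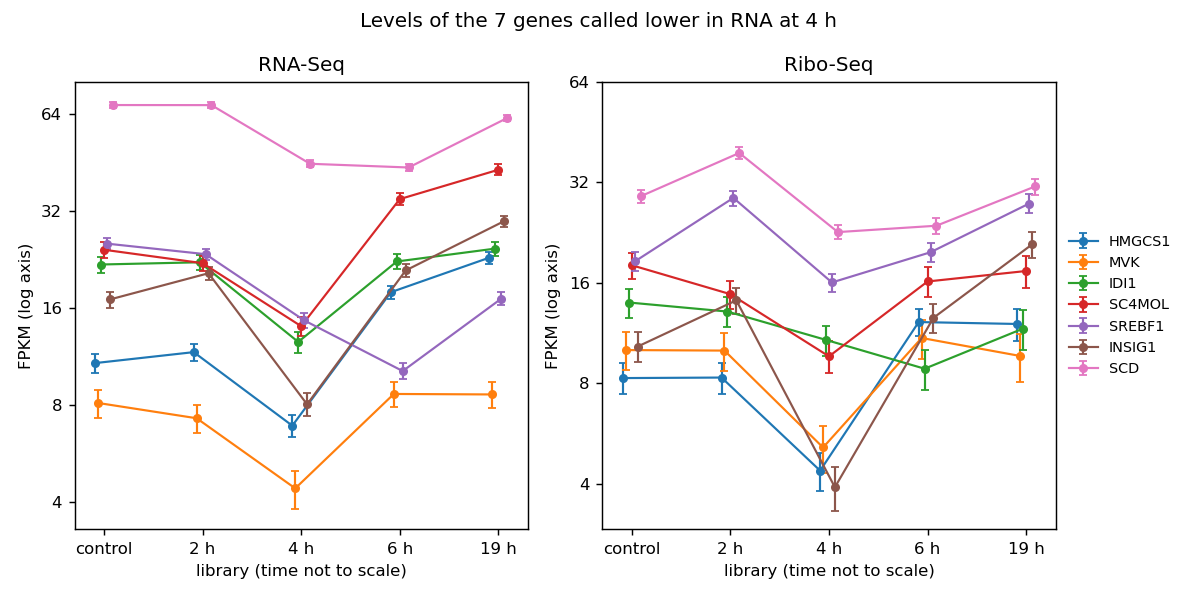
FPKM (log axis) of the 7 genes called lower in RNA at 4 h in each RNA-Seq (left) and Ribo-Seq (right) library, with 95% counting intervals and lines joining a gene's libraries. In RNA 5 of the 7 are lowest at 4 h, and SREBF1 and SCD are lowest at 6 h. INSIG1 shows the deepest dip at 4 h in both assays, while the deepest in RNA at any time is that of SREBF1 at 6 h.

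SREBF1 followed another course than its partner SREBF2. SREBF1 RNA was at 25.4, 23.6, 14.7, 10.2 and 17.2 FPKM. It was below the control in every treated library and lowest at 6 h, with log2 changes from 4 h on of -0.79 ± 0.047, -1.31 ± 0.050 and -0.57 ± 0.044, the last not called. SREBF1 Ribo-Seq levels were 18.5, 28.7, 16, 19.8 and 27.6 FPKM, above the control at 2, 6 and 19 h. SREBF2 RNA was at 37.0, 39.1, 31.9, 33.8 and 48.3 FPKM and was called at no time. The density of SREBF2 went through 15.6, 17.4, 15.8, 21.0 and 24.8 FPKM, and its change at 19 h was called (0.67 ± 0.065). SCAP, the escort of both, was the steadiest regulator. Its RNA was at 21.5, 21.6, 20.1, 21.7 and 25.5 FPKM and its Ribo-Seq level at 9.54, 9.39, 7.79, 10.5 and 11.6 FPKM, with no call in either assay.

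In the fatty acid arm SCD was the only gene called lower in RNA at both 4 and 6 h. SCD RNA was at 68.4, 68.3, 44.9, 43.8 and 62.3 FPKM, low at 4 h (-0.61 ± 0.024) and 6 h (-0.64 ± 0.024). Ribo-Seq gave SCD 29.1, 39.2, 22.7, 23.7 and 31.1 FPKM, with the same 2 libraries lowest and no call. FASN, the fatty acid synthase, was at 48.9, 53.6, 40.6, 31.3 and 56.2 FPKM in RNA, lowest at 6 h (-0.64 ± 0.022). The RNA of ACLY, ELOVL5, FADS1 and FADS2 was called at no time.

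At 6 h 3 of the 27 genes were called higher in RNA (background 5.74%), HMGCS1, TM7SF2 and HSD17B7, and 4 were called lower (11.6%), SREBF1, EBP, FASN and SCD. TM7SF2 passed the filter only through its 19 h libraries, and HSD17B7 passed in RNA only through 6 and 19 h. Among the 25 genes that reached 5 FPKM in the control library of each assay, a filter added after the data were seen, 1 was called higher at 6 h (background 4.38%). The median change was 0.24 in the sterol arm and 0.18 in the mevalonate arm, against -0.30 in the fatty acid arm and 0.05 over the 27 genes, and differences between arms were not tested. In ribosome density TM7SF2 and FASN were called higher (2 genes, background 15.0%), and IDI1, FDPS, EBP and ELOVL5 lower (4 genes, background 19.0%). Both density shares lay below the background, and among the 25 genes 1 was called higher in density (background 11.8%).

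At 19 h 5 of the 27 genes were called higher in RNA (background 7.13%), HMGCS1, TM7SF2, SC4MOL, HSD17B7 and INSIG1, and called lower were FDPS and EBP (2 genes, background 14.6%). Among the 25 genes past the filter in the control, 3 were called higher (background 5.38%). Counted without the limit of 1.5-fold, 20 of the 27 lay above the control, against 42.8% of all compared genes. TM7SF2 and HSD17B7 were among the 20. The median change was 0.20 against -0.07, and it was 0.17 over the 25 genes. The median was 0.34 in the sterol arm, which includes TM7SF2 and HSD17B7, 0.13 in the mevalonate arm and -0.01 in the fatty acid arm. In density 6 genes were called higher (background 15.0%), SQLE, TM7SF2, DHCR7, SREBF2, INSIG1 and FASN, and 3 lower (29.8%), FDPS, EBP and ELOVL5. Among the 25 genes, which leave out TM7SF2, 5 were called higher in density (background 11.9%). The median density change was 0.17, whereas that of all compared genes was -0.19. With the filter at a 20 FPKM mean the median RNA change was 0.088 and 0 genes were called higher, while the limit that slides with the local SD left 1. With the 2 h library as baseline, 1 gene was called higher in density.

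TM7SF2 had the largest changes of the group. Its RNA was at 1.32, 1.64, 0.927, 2.78 and 5.33 FPKM and its Ribo-Seq level at 1.04, 1.27, 1.53, 3.81 and 6.30 FPKM. The libraries of 6 and 19 h were the highest in both assays. Its log2 change at 19 h was 2.02 ± 0.22 in RNA and 2.60 ± 0.35 in density, from 54 and 21 reads in the control libraries. HSD17B7, a sterol keto-reductase, was at 4.48, 3.93, 3.71, 7.14 and 7.00 FPKM in RNA, again highest at 6 h (0.67 ± 0.16) and 19 h (0.65 ± 0.16). Ribo-Seq put it at 8.93, 7.65, 4.30, 10.9 and 10.1 FPKM, with the lowest at 4 h (-1.05 ± 0.21).

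FDPS and EBP went the opposite way and dropped steadily. FDPS, which makes farnesyl diphosphate, was at 67.6, 59.0, 55.4, 52.0 and 44.2 FPKM in RNA. EBP, a sterol isomerase, was at 16.1, 14.1, 11.7, 9.90 and 8.76 FPKM. Each library was lower than that of the time before, and the changes at 19 h were -0.61 ± 0.046 and -0.88 ± 0.091. In Ribo-Seq FDPS was at 102, 98.2, 98.6, 63.6 and 54.6 FPKM and EBP at 26.5, 27.7, 23.1, 15.4 and 14.8 FPKM, so that the drop lay between 4 and 6 h. ELOVL5, an elongase of polyunsaturated fatty acids, had a like drop in Ribo-Seq, with 79.1, 71.9, 62.4, 37.7 and 40.2 FPKM. Its density change was -1.07 ± 0.072 at 6 h and -0.98 ± 0.077 at 19 h, while RNA changed by -0.43 and -0.47.

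**Figure D3:**
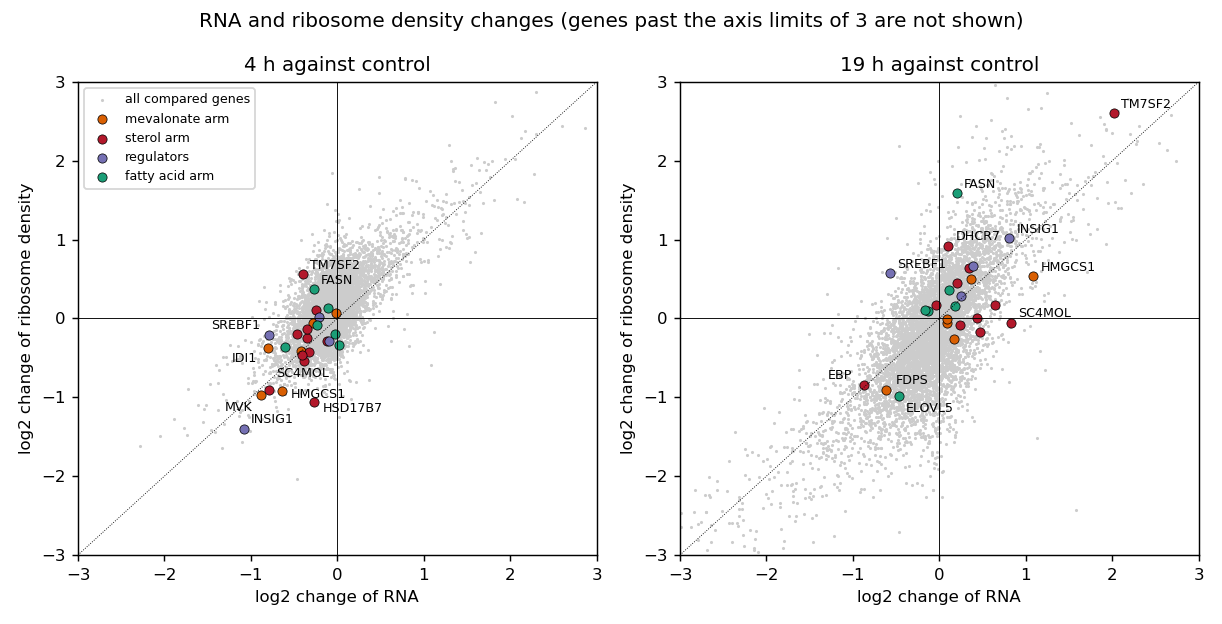
Log2 change of RNA (x axis) against log2 change of ribosome density (y axis) at 4 h (left) and 19 h (right), with the 27 genes coloured by arm over all compared genes in grey and a dotted line of equal change. At 4 h all but 1 of the genes lie left of 0, and at 19 h FASN, SREBF1 and DHCR7 lie above the line while SC4MOL and HMGCS1 lie below it.

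Across the 27 genes, the changes of RNA and density had a Pearson correlation of 0.36, 0.59, 0.42 and 0.70 at 2, 4, 6 and 19 h. Over all compared genes it was 0.55, 0.72, 0.73 and 0.84. By rank (Spearman) it was 0.37, 0.52, 0.34 and 0.44 across the 27, against 0.38, 0.53, 0.51 and 0.72. TM7SF2, which passed the filter only through its 19 h libraries, had the largest change of the 27 in both assays at 19 h. Both changes of a gene come from 1 library pair, the same for every gene, and these correlations are descriptions across genes. RNA and density changed in the same direction for 18, 20, 15 and 17 of the 27 genes, against 62.4%, 61.0%, 65.4% and 77.0% of all compared genes. At 4 h all 7 genes called lower in RNA were also below the control in density, 4 of them by at least 1.5-fold. The like counts among all 251 compared genes called lower in RNA at 4 h are not given, so the 7 have no background here.

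Between 4 and 19 h, a comparison that leaves out the control, RNA was higher at 19 h for 23 of the 27 genes. The median was 0.55, against -0.02 over all compared genes. At least 1.5-fold higher were 11 genes (background 7.44%), which were TM7SF2, INSIG1, HMGCS1, SC4MOL, MVK, IDI1, HSD17B7, SC5DL, MVD, SQLE and SREBF2. None was lower (11.7%). Of these 11, 9 belong to the mevalonate and sterol arms and 2 are regulators, and no gene of the fatty acid arm was among them. TM7SF2 and HSD17B7 are among the 9, and without them 9 genes of 25 were higher in RNA (background 5.98%) and 10 in density (8.04%). INSIG1 differed by 1.89 ± 0.066, HMGCS1 by 1.73 ± 0.067 and SC4MOL by 1.61 ± 0.059. Density gave a median of 0.57 against -0.32, with 12 genes higher (background 9.58%) and 3 lower (34.1%), the latter being FDPS, EBP and ELOVL5. At a 2-fold limit 4 genes remained higher in RNA and 7 in density, and among the 11 genes past a 20 FPKM mean 0 were higher in RNA and 2 in density. Taken relative to the median of all compared genes, 20 genes were higher and 0 lower in density. The share of all compared genes is not given for that setting, so these 2 counts have no background beside them. The labels name no sequencing run, so a run and a time cannot be told apart. The study states that each condition was compared with a control of its own run. Its list of samples holds nutlin-3a at 6 and 19 h, and not at 2 or 4 h, so the run of the 4 h libraries is not known.

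**Figure D4:**
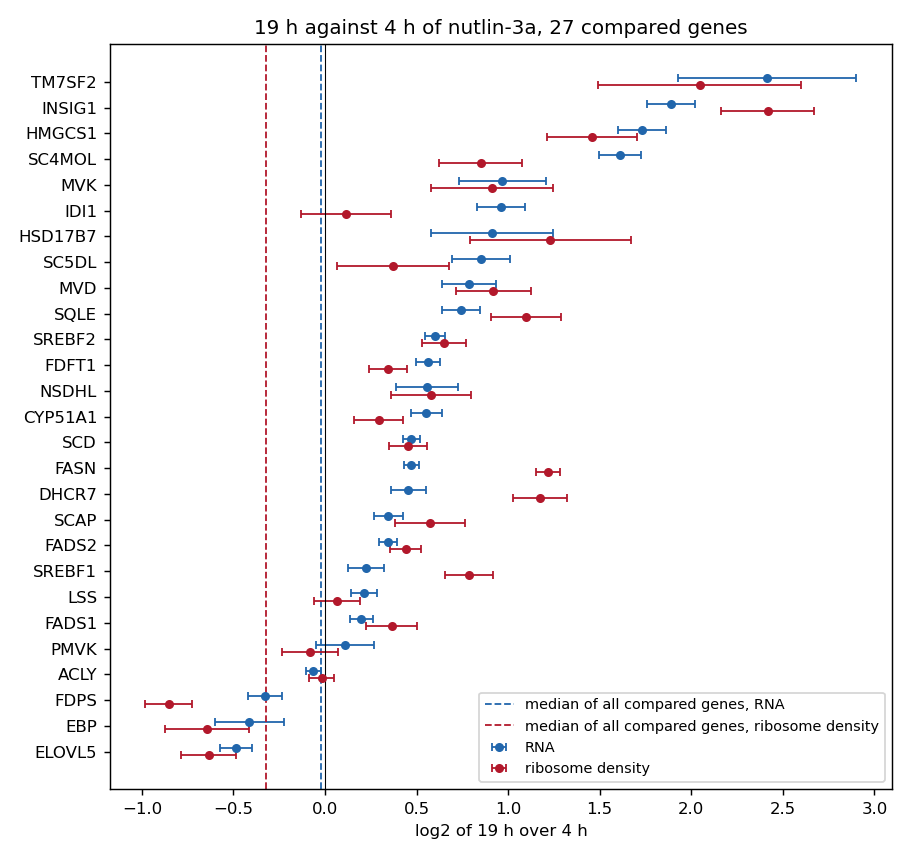
Log2 of the 19 h level over the 4 h level for the 27 compared genes, in RNA (blue) and ribosome density (red), ordered by RNA, with 95% counting intervals. Dashed lines are the medians of all compared genes (-0.02 and -0.32), and 23 genes lie above 0 in RNA and 22 in density.

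TE moved in single genes, while the median of the group stayed near 0. The median TE change of the 27 genes was 0.07, 0.09, -0.01 and 0.03 at 2, 4, 6 and 19 h, against 0.04, 0.18, 0.00 and -0.07 over all compared genes. At 2 h 2 genes were called higher (background 5.39%) and 0 lower (1.78%), and at 4 h 2 were higher (9.24%) and 1 lower (0.713%). At 6 h 4 were higher (13.3%) and 3 lower (12.3%), followed at 19 h by 3 higher (9.00%) and 2 lower (15.6%). The counts of 6 and 19 h were near or below the background. At 19 h the genes called higher were FASN, SREBF1 and DHCR7, and those called lower SC4MOL and SC5DL. With the 2 h library as baseline, SC4MOL alone of these 5 kept its call (-0.73).

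FASN had the largest TE change of the 27 at 2, 6 and 19 h. Its Ribo-Seq levels were 21.9, 50.6, 28.3, 48.5 and 65.9 FPKM, with the control the lowest of the 5. As a level, log2 TE of FASN was -1.16 in the control and -0.08, -0.52, 0.63 and 0.23 in the treated libraries. The changes were 1.08 ± 0.042, 0.64 ± 0.045, 1.79 ± 0.044 and 1.39 ± 0.043. These values depend on the baseline. With the 2 h library as baseline, the density change of FASN was 0.38 at 19 h and -0.061 at 6 h. Its TE change at 19 h was then 0.31 and no longer called. From 4 to 19 h, which leaves out the control, its density differed by 1.22 ± 0.033 and its RNA by 0.47 ± 0.020. FASN also has a long transcript, 8457 nt. Over all compared genes, TE changes ran with transcript length at 2, 6 and 19 h but not at 4 h. The Pearson correlation of TE change with log2 length was 0.53, 0.29, 0.58 and 0.51 at the 4 times across the 27 genes. Over all compared genes it was 0.27, -0.05, 0.26 and 0.24. The 27 include FASN itself, their longest, and by rank (Spearman) their values were 0.40, 0.17, 0.50 and 0.42. After removal of the trend over all compared genes, the TE change of FASN at 19 h was 1.14. The part of length in its TE change beyond that trend was not tested.

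SREBF1 was the second in TE. As a level, its log2 TE was -0.46, 0.29, 0.13, 0.95 and 0.69, lowest in the control, and the changes were 1.41 ± 0.085 at 6 h and 1.14 ± 0.080 at 19 h. At 6 h the RNA change was -1.31 and the density change 0.09. With the 2 h library as baseline, the TE change of SREBF1 was 0.66 at 6 h and 0.40 at 19 h, the latter not called. DHCR7, the reductase that completes cholesterol, was at 29.4, 28.6, 23.0, 25.7 and 31.6 FPKM in RNA. Its Ribo-Seq levels were 20.9, 29.9, 17.6, 27.4 and 39.6 FPKM, and the 19 h library was the highest (TE change 0.82 ± 0.088, or 0.26 from 2 h). In the other direction, log2 TE of SC4MOL went from -0.43 in the control to -1.31 at 19 h (-0.88 ± 0.12). SC5DL, a sterol desaturase, was at 10.7, 10.6, 8.18, 13.0 and 14.8 FPKM in RNA and at 8.55, 6.56, 5.86, 8.61 and 7.57 FPKM in Ribo-Seq. Its TE change at 19 h was -0.64 ± 0.17, or -0.27 from 2 h. The TE calls of TM7SF2 at 4 h (0.95 ± 0.50) and 6 h (0.79 ± 0.43) had 95% counting intervals that include 0.

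**Figure D5:**
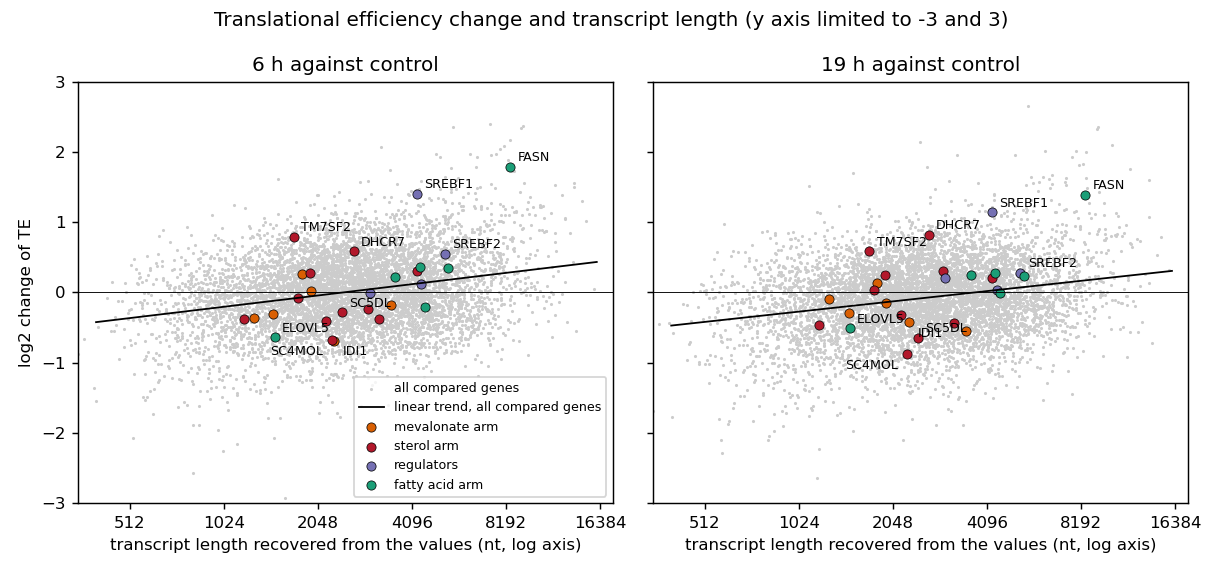
Log2 change of TE at 6 h (left) and 19 h (right) against transcript length (nt, log axis), with the 27 genes coloured by arm, all compared genes in grey and their linear trend as a black line. FASN (8457 nt) and SREBF1 lie above the trend at both times, and SC4MOL lies below it.

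The compared genes not named with their values were called in RNA at no time. Counted with DHCR7, SC5DL, SREBF2, SCAP and ELOVL5, there were 15 such genes. The others were PMVK, MVD, FDFT1, SQLE, LSS, CYP51A1, NSDHL, ACLY, FADS1 and FADS2. At 4 h their RNA changes ran from -0.42 for MVD, the decarboxylase of the mevalonate arm, to -0.02 for PMVK and FADS1. SQLE, the squalene epoxidase, was the only one of these 10 called in density, at 19 h (0.64 ± 0.095). Of the 5 genes below the filter, ACAT2, ACACA and ELOVL6 had RNA changes of -0.66, -0.41 and -0.70 at 19 h. Those of ACAT2 and ELOVL6 were past 1.5-fold. ACAT2 RNA was at 0.847 FPKM at 19 h, under the floor of 1 FPKM, so the floor set its change. STARD4, a cytosolic sterol carrier, was at 10.9, 13.1, 9.79, 13.4 and 13.7 FPKM in RNA and at 3.53, 3.86, 2.67, 2.89 and 2.13 FPKM in Ribo-Seq.

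Other genes tied to the pathway were taken from lists of related function. TMEM97, a further SREBP target and a membrane protein linked to cholesterol transport, took the course of EBP and not of HMGCS1, with 14.8, 14.6, 13.8, 7.74 and 5.79 FPKM in RNA.

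The machinery that carries and cleaves SREBPs was steady in RNA. Of its 12 listed genes 11 were compared, and 0 were called in RNA at any time, with medians between -0.05 and 0.21. The background was highest at 19 h, with 7.13% higher and 14.6% lower. In density 2 were called lower at 6 h (background 19.0%), and 4 lower and 1 higher at 19 h (29.8% and 15.0%). Of 12 genes that branch from the mevalonate arm 8 were compared. ICMT, the methyltransferase of prenylated proteins, went from 56.5 FPKM in the control to 53.1, 44.5, 27.1 and 24.0 FPKM. It was the single one called in RNA, lower at 6 and 19 h (background 11.6% and 14.6%). PDSS1, which starts the side chain of coenzyme Q and was below the filter, went through 5.24, 4.93, 4.13, 2.39 and 1.68 FPKM. Of 12 fatty acid oxidation genes 9 were compared, of which 1 was called lower in RNA at 6 h (background 11.6%) and 2 higher at 19 h (7.13%).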

How the data were processed

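Gene expression was measured in 10 libraries, 5 of RNA-Seq and 5 of Ribo-Seq, grouped by their labels. As the study's methods state, reads were mapped by the authors with Bowtie onto protein-coding transcripts of Ensembl release 65, 1 isoform per gene, using the first 25 nt of Ribo-Seq reads as seed and keeping unique hits. hg19 is named in the submitters' processing notes, and the Bowtie version is not given in the sources used here. The authors deposited FPKM in 2 tables with 3 decimals. A table whose name holds only Ribo-Seq was taken for that assay and the other for RNA-Seq. Of 26 replication-dependent histone transcripts in both, 20 lay under 1 FPKM in the untreated RNA-Seq library and 0 in that of Ribo-Seq. The methods describe Ribo-Seq levels from coding sequence, while the column names say total. Where a length was recovered, a single length per transcript fitted both assays, so Ribo-Seq levels were not divided by coding length alone. Whether Ribo-Seq reads outside coding sequence were counted was not settled.

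Lengths, reads and library totals were worked out from the steps between values for 11219 transcripts (99.7%), including all 32 genes, and the recovery and the calls were tested on simulated data. Values were floored at 1 FPKM, after the study's methods. With 1 library per group a fixed fold of 1.5 replaced any test. Counting errors treat reads as independent, although PCR copies were not distinguishable. The members, lists and comparisons were chosen with earlier results of these data known. Values in every library were given for compared genes called in RNA with a change over 1.96 counting errors, for the 5 regulators, and for genes called in TE at 19 h. Listed genes past 2-fold in RNA were named, apart from results on some listed SREBP targets that are not reported here. Settings tried were no floor, a floor of 5 FPKM, a pseudocount of 1 FPKM, no filter, a mean of at least 20 FPKM, the 2 h baseline, centring, removal of the length trend, a 2-fold limit and a sliding limit of 1.75 local SDs, and, added after the data were seen, a filter of 5 FPKM in the control library of each assay. The study describes a batch effect between sequencing runs. Python 3.11.15, numpy 2.4.6 and pandas 2.3.3 were used.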

Additional observations from a re-analysis of the deposited data

Results flagged for a closer look

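Some values lay on opposite sides of the control at 4 and at 19 h. The difference was not tested, since each time held 1 library, and both times share the control libraries. The median log2 change of the 27 compared genes was -0.35 at 4 h and 0.20 at 19 h in RNA, and -0.29 and 0.17 in ribosome density. HMGCS1 RNA changed by -0.64 at 4 h and by 1.09 at 19 h. SC4MOL RNA changed by -0.79 and 0.82. INSIG1 changed by -1.08 and 0.81 in RNA and by -1.40 and 1.02 in ribosome density.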

How the results depend on the processing

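No paired analysis was possible because each group held 1 library, and for the same reason no replicate could be left out. Of 107 medians over the 27 genes under 8 alternatives, 96 moved by less than the median gene's 95% counting interval. With a mean of at least 20 FPKM, which left 11 of the 27 genes but not HMGCS1, SC4MOL or INSIG1, the median RNA change was -0.25, -0.20 and 0.088 at 4, 6 and 19 h and 0.35 from 4 to 19 h. With that filter it was -0.081 at 4 h and 0.29 from 4 to 19 h in ribosome density, and 0.22 at 6 h in TE. The median density change was -0.061 at 6 h with the 2 h baseline, and 0.36 at 19 h and 0.89 from 4 to 19 h after centring. Without a filter it was 0.40 from 4 to 19 h. With the 2 h baseline FASN reversed in density at 6 h (-0.061) and in TE at 4 h (-0.43), and the cause was not tested. A filter of 5 FPKM in the control, added after the data were seen, left the medians within that interval. The sign of 10 medians changed under an alternative.

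Counts of called genes depended on the limit. Shares of all compared genes are given only for the main setting and for the filter in the control. Over all alternatives the count lower in RNA at 4 h, 7 as reported, ran from 1 to 8, with 1 at 2-fold and 5 with the sliding limit. The count higher in RNA at 19 h, 5 as reported, ran from 0 to 5, with 2 and 1, and 3 with the filter in the control, which also left 1 higher at 6 h in RNA and in density, and 1 higher and 0 lower in TE at 4 h. The RNA counts at 6 h, 3 higher and 4 lower, ran from 0 to 4 and from 1 to 5. In density the 5 genes lower at 4 h ran from 0 to 10, and the 6 higher and 3 lower at 19 h from 1 to 10 and from 0 to 7. From 4 to 19 h the count higher ran from 0 to 11 in RNA and from 2 to 20 in density. In TE the 3 higher and 2 lower at 19 h ran from 1 to 4 and from 0 to 5. Counting errors were widest in the shallow Ribo-Seq library of 19 h, where members had as few as 10 reads.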

Other observations

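Genes of cholesterol export lay mostly below the filter. ABCA1, the transporter that loads cholesterol onto lipoproteins and a target of the sterol-sensing LXR receptors, was below the filter, and its RNA was at 0.743, 0.675, 2.15, 4.11 and 5.16 FPKM in the control and at 2, 4, 6 and 19 h. Its Ribo-Seq levels were 0.259, 0.506, 0.738, 2.39 and 3.25 FPKM. In both assays the libraries of 4, 6 and 19 h lay above those of the control and 2 h. In Ribo-Seq the levels up to 4 h were all under the floor of 1 FPKM, so that the change at 4 h counts as 0. The other genes of this list below the filter went both ways in density at 19 h, from -1.01 for MYLIP to 0.41 for CYP27A1. Against a control floored at 1 FPKM, the log2 change of ABCA1 RNA at 19 h was 2.37 ± 0.11. Of the 11 genes listed for LXR and efflux 9 were in both tables and 3 were compared, of which 0 were called higher in RNA (background 5.74% at 6 h and 7.13% at 19 h) and 1 was called lower at each of these times (11.6% and 14.6%).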
